A study of Bubalus bubalis with 6 samples.

Results

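The nuclear pore and nuclear transport genes were a set of 42 gene symbols, taken as the rows of the deposited gene table that carry one of these symbols. Of the 42, 40 were listed among the 24616 rows of the table, and all 40 had enough counts to be tested. NUP62 and RANBP1 were not found under these symbols and were not analysed here.

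RNA-seq of polyadenylated RNA was carried out on water buffalo (Bubalus bubalis) muscle stem cells (MuSCs), the myogenic precursors that build and repair skeletal muscle. The cells were a primary isolate from the longissimus muscle of fetal Chinese buffalo, and no genetic change or other agent was named for either group. How many fetuses gave the cells is not given in the sources used here. The 3 GM samples were proliferating MuSCs in growth medium, which is DMEM with fetal bovine serum. The 3 DM samples were MuSCs moved at near confluence to differentiation medium, which is DMEM with a low share of horse serum. The study describes differentiation over several days, but its methods and its results differ on the length, so the day of sampling is uncertain. The labels do not say whether each sample was a culture or an animal of its own, so the p-values measure only the spread between these samples, which may be technical.

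The nuclear pore complex is a large protein channel through the nuclear envelope. An outer ring (the Y complex) and an inner ring form its scaffold, membrane proteins anchor it, channel proteins with phenylalanine-glycine repeats set what may pass, and the cytoplasmic face and the nuclear basket carry the docking sites. Importins bring cargo with a nuclear localisation signal into the nucleus and exportins carry cargo out, with the direction set by the small GTPase Ran, while the receptor NXF1-NXT1 takes mRNA out. In animals whose nuclear envelope breaks down at mitosis, dividing cells build pores again after each division, and scaffold proteins of the pore are known to be long-lived in cells that no longer divide.

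The expression of these genes was lower in the DM samples across almost every part of the pore and of the transport machinery. Of the 40 genes, 37 fell, and XPOT, the tRNA exportin, was the 1 gene that rose. KPNA4 and TNPO1, both import receptors, did not pass the test. Here "fell" and "rose" mean an adjusted p under 0.05 in edgeR's quasi-likelihood test with Benjamini-Hochberg adjustment over all 15576 tested genes. Among all tested genes, 31.4% were lower in this sense and 31.6% were higher. A gene was called when its log2 fold change (DM over GM) was also beyond 1 in size. That held for 19 of the 40 genes on the lower side, against 10.3% of all tested genes. On the higher side it held for 0 of the 40, against 15.0% of all tested genes. The 0 stood with edgeR, with DESeq2 and at an unadjusted p under 0.05, since the highest estimate in the set was 0.58.

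The median log2 fold change of the 40 genes was -0.88, beside 0.03 over all tested genes. A negative estimate was found for 39 of the 40, beside 48.7% of all tested genes. For 38 of the 40, the ranges of the GM and of the DM samples lay apart, which was also so for 68.8% of all tested genes. The 37 genes that fell kept 1.30 to 81.6% of their GM level in the DM samples, with a median of 49.4%. The 1.30% was that of NUP210, which rests on few counts, and the next lowest was KPNA2 at 25.8%. Levels are given as CPM, gene counts scaled to the TMM-adjusted library size, in the order of replicates 1, 2 and 3. Summed over the 40 genes, the GM samples reached 6169 to 6393 CPM and the DM samples 3472 to 3618 CPM. The sets of 3 therefore did not overlap in the summed level, and the DM samples stood close together. Relative to the GM mean, the median gene of the set was at -0.87 in DM1, -0.82 in DM2 and -0.88 in DM3 on the log2 scale.

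**Figure D1:**
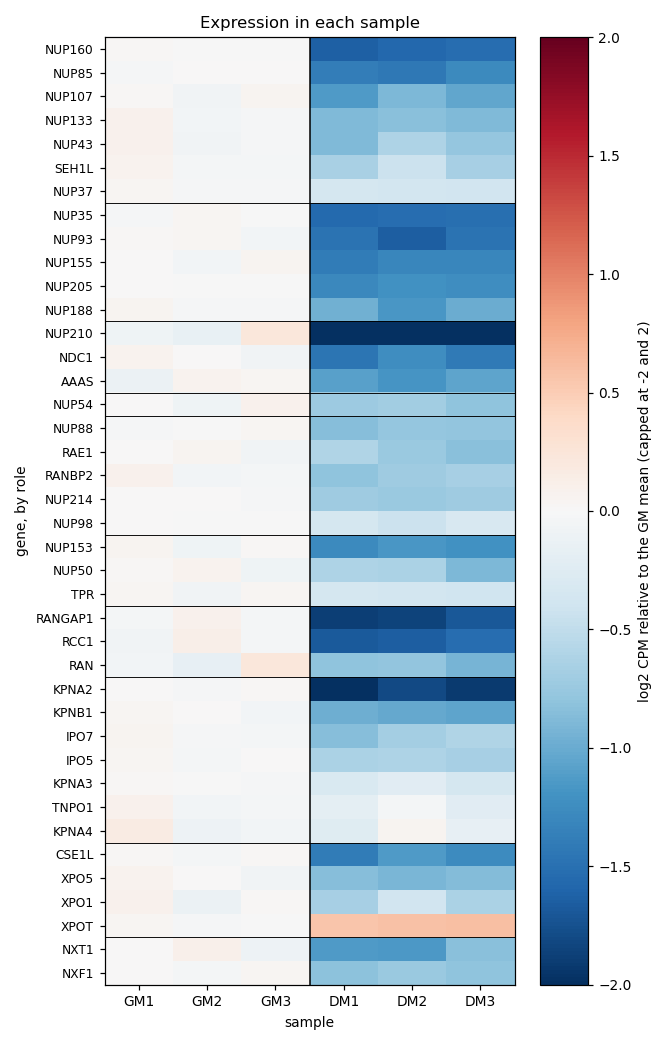
Each cell of the heatmap gives the log2 CPM of 1 gene (vertical, grouped by role) in 1 sample (horizontal) relative to the mean of the 3 GM samples, with colours capped at -2 and 2. The DM columns are blue for nearly all rows, XPOT is red in all 3 DM samples, and the medians of the DM columns are -0.87, -0.82 and -0.88.

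The samples ranged from 36657735 to 40305237 gene counts in GM and from 35615864 to 38177614 in DM. DM3 stood apart from the other DM samples, since its counts differed from those of DM1 and DM2 by a chi-square of 37.9 to 38.5 for each degree of freedom over genes, against 11.0 between DM1 and DM2 and 5.84 to 9.88 between GM samples. Without DM3, 37 of the 40 genes were still lower, 18 of them called, and the median was -0.87. The 12 proliferation markers (MKI67, TOP2A and others) all fell, from a summed 2779 to 2818 CPM in GM to 627 to 729 CPM in DM. Of 10 markers of differentiated muscle, 8 were listed and all 8 rose, from a summed 424 to 860 CPM to 6310.5 to 9264 CPM. Of the 8 fibroblast genes, TCF21 was at or near 0 in every sample and was not tested, and of the other 7, 6 rose and 1 fell. Their sum, most of it from COL1A1 and COL3A1, was 25274 to 25502 CPM in GM and 77363 to 97129 CPM in DM. Of the 8 myogenic genes 5 fell, among them PAX7 and MYF5, and 2 rose, MYOD1 and MYOG. Their sums were 3148 to 3404 CPM in GM and 2455 to 2948 CPM in DM. Most of this came from DES, which did not pass the test, at means of 2274 CPM in GM and 2051 CPM in DM. Each of the 8 was detected, at group means of at least 12.2 RPKM in GM and 6.44 RPKM in DM. Adipocyte, endothelial and leukocyte markers were low in both groups, at sums of at most 4.98, 5.65 and 13.5 CPM, but not unchanged. In each of these lists 1 gene was called lower and 1 called higher. The leukocyte sum was 6.15 to 7.96 CPM in GM and 7.16 to 13.5 CPM in DM. The part of these marker changes in the results on nuclear pore and transport genes was not tested. In bulk samples such as these, fewer cells of a type and less RNA per cell cannot be told apart.

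The Y complex, whose copies form the outer rings on both faces of the pore, had all 7 of its genes in the set lower, 3 of them called, with a median log2 fold change of -0.88. The counts of this and the following role groups stand beside 31.4% lower and 10.3% called lower among all tested genes. NUP160, which forms a short arm of the Y together with NUP37, had 121, 119.8 and 119 CPM in the GM samples and 38.3, 40.1 and 41.5 CPM in the DM samples. Its 3 DM samples lay within a narrow band, and the fall was 1.58 (SE 0.062) on the log2 scale (edgeR, adjusted p = 1.26e-08). NUP85, the core of the other short arm, had 98.2, 101 and 101 CPM in the GM samples and 38.2, 36.6 and 41.0 CPM in the DM samples, a log2 fold change of -1.37 (SE 0.067) with an edgeR adjusted p of 4.74e-08. NUP107, in the stem of the Y, went from 50.1, 47.2 and 51.1 to 22.2, 26.4 and 23.8 CPM. No DM sample of NUP107 reached the GM samples, and the log2 fold change of -1.03 (SE 0.082) was only just beyond the threshold for a call (edgeR adjusted p = 1.34e-06), a call that was not made without DM1. NUP133, at the tip of the stem, fell by 0.88 (SE 0.068), NUP43, a partner of NUP85, by 0.77 (SE 0.089), SEH1L, an arm protein shared with the nutrient-sensing GATOR complex, by 0.58 (SE 0.077) and NUP37 by 0.38 (SE 0.083) on the log2 scale. Within this one complex the genes thus kept from 33.3% of the GM level (NUP160) to 77.0% (NUP37).

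All 5 members of the inner ring, the scaffold around the central channel, fell and all 5 were called, with a median of -1.35. NUP35, which binds the membrane and links inner ring subunits, had 36.3, 38.0 and 36.9 CPM in the GM samples and 12.2, 12.5 and 12.7 CPM in the DM samples. Its DM levels were almost equal to each other, and the log2 fold change was -1.57 (SE 0.073, edgeR adjusted p = 3.28e-08). NUP93, the linker that holds the inner ring to the channel proteins, went from 149, 152 and 141 to 52.7, 46.5 and 52.4 CPM, a log2 fold change of -1.54 (SE 0.071, edgeR adjusted p = 3.04e-08). NUP155, a membrane-binding subunit, went from 98.9, 95.6 and 102 to 37.1, 39.7 and 39.9 CPM, a log2 fold change of -1.35 (SE 0.066, edgeR adjusted p = 4.7e-08). NUP205 and NUP188 are large paralogous scaffold proteins that each pair with NUP93. NUP205 went from 219.8, 217 and 217 to 89.1, 94.2 and 91.4 CPM, a log2 fold change of -1.25 (SE 0.057, edgeR adjusted p = 2.96e-08). NUP188 went from 212, 199 and 199.9 to 105, 90.3 and 102 CPM, a log2 fold change of -1.04 (SE 0.071, edgeR adjusted p = 4.67e-07). For each of the 5, every DM sample was below every GM sample, while the groups lay apart for 68.8% of all tested genes. The call of NUP188 was lost without DM2, the DM sample with its lowest level.

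**Figure D2:**
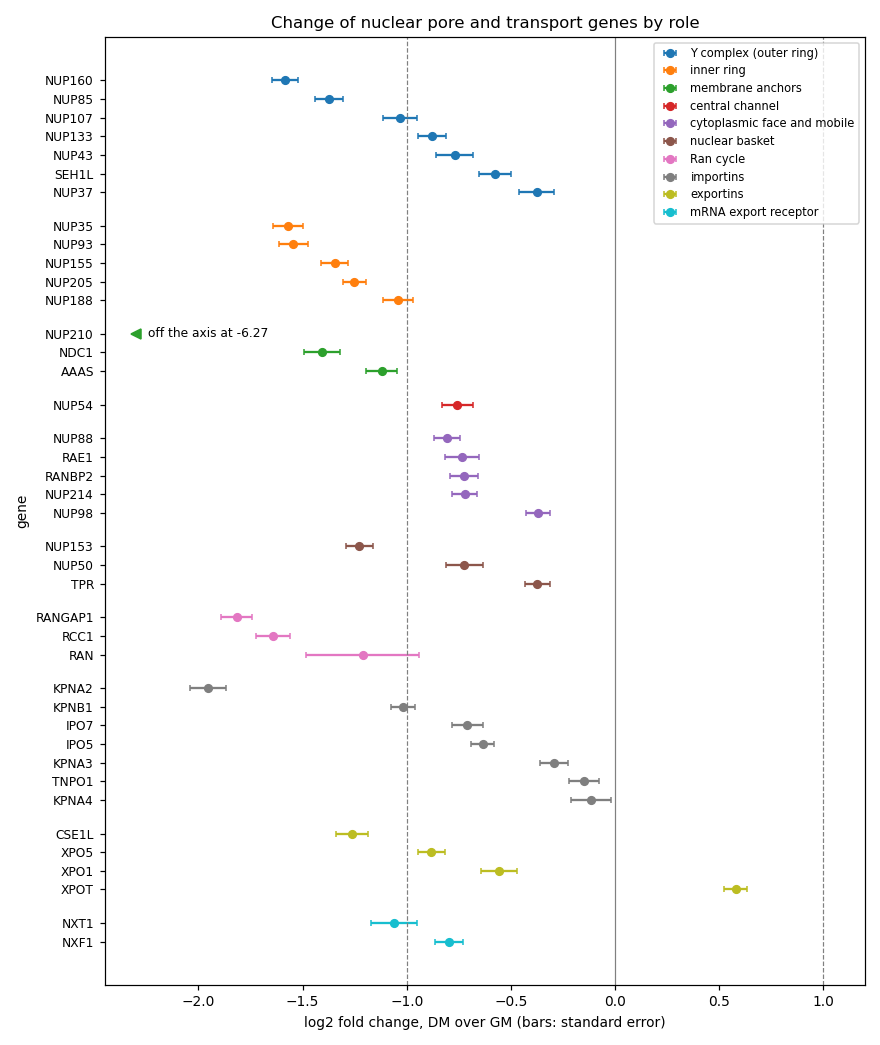
Log2 fold change of DM over GM (horizontal) for each of the 40 genes (vertical), coloured by role, with bars for the standard error and dashed lines at the call threshold of 1 in both directions. All genes of the inner ring, membrane anchor (with AAAS) and Ran cycle groups lie beyond -1. The cytoplasmic face genes lie between -1 and 0, XPOT lies at 0.58, and NUP210 is off the axis at -6.27.

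The 3 genes grouped here as membrane anchors, NUP210, NDC1 and AAAS, fell and were called. AAAS is not itself a membrane protein but is held at the pore by NDC1. NUP210 (gp210) is a single-pass membrane protein known as a tissue-dependent part of the pore, and its row lies at chromosome 22, 59167799 to 59244357 in the coordinates of the deposited table. NUP210 had 92, 88 and 109 counts in the GM samples and 0, 1 and 2 in the DM samples, so that it was nearly undetected after differentiation. Over the groups this was 289 against 3 counts, a ratio of 85.5 per scaled library with an exact 95% interval of 29.0 to 417 that covers counting error only. The fitted log2 fold change of NUP210, -6.27 (edgeR adjusted p = 1.69e-06), depends on the small value added to counts near 0. The gene was also rare in proliferating cells, at 0.417 ± 0.0715 RPKM (CPM per kilobase of the deposited length, mean ± SD, n = 3), the lowest of the 40. It was the 1 gene of the set that missed a minimum of 1 RPKM in more than 50% of samples. Both NUP210 transcripts in the mRNA table had the same pattern, with 0 to 2 counts in each DM sample. NUP210L, its paralog, had 16.1, 16.1 and 14.3 CPM in the GM samples and 13.9, 17.7 and 12.4 CPM in the DM samples and did not pass the test (log2 fold change -0.08 (SE 0.13), edgeR adjusted p = 0.628).

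NDC1, a multi-pass membrane protein needed to insert new pores, had 33.9, 32.5 and 30.9 CPM in the GM samples and 11.5, 13.4 and 11.8 CPM in the DM samples, a log2 fold change of -1.41 (SE 0.088, edgeR adjusted p = 2.48e-07). AAAS (aladin), which NDC1 holds at the pore, had 60.0, 67.7 and 67.0 CPM in the GM samples and 30.4, 28.3 and 30.9 CPM in the DM samples, a log2 fold change of -1.12 (SE 0.075, edgeR adjusted p = 4.2e-07). For both genes the groups were well apart relative to the spread within them. NUP54, the 1 listed gene of the set in the central channel and a partner of NUP62, had 40.8, 37.8 and 42.7 CPM in the GM samples and 24.2, 24.7 and 22.9 CPM in the DM samples. It fell by 0.76 (SE 0.076) on the log2 scale (edgeR adjusted p = 8.15e-06) and was not called. NUP58, a further member of the NUP62-NUP54 complex taken from a wider list, fell by 0.23 (SE 0.061, edgeR adjusted p = 0.00654).

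Of the 5 genes of the cytoplasmic face and the mobile fraction, all fell and 0 were called, with estimates from -0.81 to -0.37. Among all tested genes 31.4% were lower and 10.3% called lower, so 0 of 5 called is near the share of all genes. NUP88, which holds NUP214 at the cytoplasmic face, had 83.9, 84.9 and 87.8 CPM in the GM samples and 47.1, 50.01 and 49.3 CPM in the DM samples and fell by 0.81 (SE 0.062, edgeR adjusted p = 1.12e-06). RAE1, which binds NUP98 and acts in mRNA export and at the spindle, had 39.2, 40.5 and 37.0 CPM in the GM samples and 25.5, 23.0 and 21.5 CPM in the DM samples and fell by 0.74 (SE 0.083) on the log2 scale (edgeR adjusted p = 1.95e-05). RANBP2, the giant filament protein that binds Ran and acts as a SUMO ligase, had 324, 293 and 294 CPM in the GM samples and 174, 185 and 192 CPM in the DM samples and fell by 0.73 (SE 0.067, edgeR adjusted p = 4.19e-06). These 3 genes and NUP214, which fell by 0.72 (SE 0.059) and docks export complexes, changed by almost the same amount. NUP98, a mobile channel protein made from a precursor shared with NUP96, fell by 0.37 (SE 0.060) and kept 77.4% of its GM level.

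The nuclear basket also had 3 of 3 members lower, with 1 called. NUP153, which helps bring the Y complex to new pores in interphase, had 118, 108 and 116 CPM in the GM samples and 46.8, 50.3 and 48.8 CPM in the DM samples, a log2 fold change of -1.23 (SE 0.066, edgeR adjusted p = 8.72e-08). NUP50, a mobile protein that helps importin alpha release its cargo, had 67.3, 69.9 and 62.5 CPM in the GM samples and 43.0, 42.7 and 35.2 CPM in the DM samples and fell by 0.72 (SE 0.089, edgeR adjusted p = 3.8e-05). TPR, the coiled-coil filament of the basket, had 239, 222 and 241 CPM in the GM samples and 184, 182 and 177 CPM in the DM samples and fell by 0.37 (SE 0.059, edgeR adjusted p = 0.000266). TPR kept 77.2% of its GM level and NUP153 42.7%, a difference between the genes that was not tested. The row of TPR was the 1 row of the set that overlapped another protein-coding row, and whether the counts took strand into account is not given in the sources used here.

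The Ran cycle genes of the set had the largest median change of its role groups with more than 1 gene, -1.64, and all 3 listed genes were called, although 1 of the 3 rests on few counts. RANGAP1, which makes Ran hydrolyse GTP at the cytoplasmic side, had 248, 272 and 249 CPM in the GM samples and 69.0, 70.8 and 78.6 CPM in the DM samples. It kept 28.4% of its GM level, a log2 fold change of -1.82 (SE 0.073, edgeR adjusted p = 1.39e-08). RCC1, the chromatin-bound exchange factor that loads Ran with GTP, had 63.7, 72.5 and 65.0 CPM in the GM samples and 20.5, 20.9 and 23.0 CPM in the DM samples, a log2 fold change of -1.64 (SE 0.081, edgeR adjusted p = 4.99e-08). RCC1 kept 32.0% of its GM level, so that the regulators of Ran on both sides of the envelope were lower by similar amounts. The row named RAN had 70, 64 and 82 counts in the GM samples and 27, 30 and 26 in the DM samples, a log2 fold change of -1.21 (SE 0.27, edgeR adjusted p = 0.00261). This row is 651 bases long and lies on chromosome X from 57523485 to 57525442, whereas the buffalo RefSeq annotation (NDDB_SH_1) places RAN on an autosome. Its values are uncertain, since the row may be a copy of the gene. Outside the set, NUTF2, which returns Ran to the nucleus, fell by 0.89 (SE 0.059, edgeR adjusted p = 3.75e-07) and was not called, and RANGRF, a Ran-binding factor, did not pass the test (log2 fold change 0.21 (SE 0.13), edgeR adjusted p = 0.186).

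Among the 7 import receptors 5 fell, 2 of them called. KPNA2 (importin alpha 1), the adaptor that binds classical nuclear localisation signals, lies at chromosome 19, 49569375 to 49579204, and had 442, 432 and 447 CPM in the GM samples and 98.4, 126 and 116 CPM in the DM samples. The DM samples of KPNA2 kept 25.8% of the GM level, a log2 fold change of -1.96 (SE 0.087, edgeR adjusted p = 2.6e-08), the largest fall of the set after NUP210. KPNB1 (importin beta 1), the carrier that takes the adaptor and its cargo through the pore, had 903, 891 and 851 CPM in the GM samples and 446, 435 and 426 CPM in the DM samples. Its log2 fold change was -1.02 (SE 0.058, edgeR adjusted p = 1.28e-07), and it was not called without GM1 or without DM3. IPO7, which imports ribosomal proteins and other cargo, had 370.2, 349 and 346 CPM in the GM samples and 197, 221 and 234 CPM in the DM samples and fell by 0.71 (SE 0.073, edgeR adjusted p = 9.97e-06). IPO5 fell by 0.64 (SE 0.056) and KPNA3, another adaptor, by 0.29 (SE 0.068). For the last 2 receptors the groups overlapped. KPNA4 (importin alpha 3) had 74.1, 61.6 and 64.2 CPM in the GM samples and 56.1, 69.0 and 59.3 CPM in the DM samples, a log2 fold change of -0.12 (SE 0.096, edgeR adjusted p = 0.312). TNPO1 (transportin 1), the receptor of hnRNP proteins, had 123, 111 and 112 CPM in the GM samples and 100.5, 112 and 99.0 CPM in the DM samples, a log2 fold change of -0.15 (SE 0.072, edgeR adjusted p = 0.0902). TNPO1 passed the test when DM2 was left out (-0.20, edgeR adjusted p = 0.0355).

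The importin alpha genes were then compared with each other within each sample, as the share of each in their summed RPKM. KPNA2 made up 63.9, 65.4 and 66.2% of the sum in the GM samples and 31.7, 34.9 and 35.5% in the DM samples. The mean share was 65.2 ± 1.14% in GM and 34.0 ± 2.06% in DM (SD, n = 3), a difference of -31.1 percentage points. In an exact two-sided permutation test the p was 0.1, and no smaller p can be had with 3 samples in each group. Adjusted by Benjamini-Hochberg for the 7 genes compared, this permutation p was 0.117. KPNA4 took 12.3 ± 0.96% of the sum in GM and 23.1 ± 0.694% in DM, KPNA1 took 5.30 ± 0.233 and 15.1 ± 0.65%, KPNA3 took 8.29 ± 0.143 and 13.8 ± 0.724%, and KPNA6 took 8.62 ± 0.246 and 13.1 ± 1.39%. For these 4 genes, too, the shares did not overlap and the exact permutation p was 0.1. All shares are parts of the same sum, so these larger shares are tied to the smaller share of KPNA2 and are not separate results. A larger share was not a higher level for KPNA3, KPNA4 and KPNA6. KPNA6 was at 29.7 ± 0.499 RPKM in GM and 22.2 ± 1.80 RPKM in DM and fell by 0.42 (SE 0.074, edgeR adjusted p = 0.000575). KPNA3 fell as given above. KPNA4, which did not pass the test, was at 42.6 ± 4.22 RPKM in GM and 39.2 ± 4.29 RPKM in DM. Of these 4 genes KPNA1 alone rose, by 0.48 (SE 0.072, edgeR adjusted p = 0.000159). KPNA5 took at most 1.23% in any sample, and KPNA7 was at 0 in 5 of the 6. The summed level of all importin alpha genes was 344 ± 7.73 RPKM in GM and 169.6 ± 13.4 RPKM in DM, and without KPNA2 it was 120.0 ± 6.07 and 112 ± 7.18 RPKM. Without KPNA2 the ranges of the summed level overlapped, at 116 to 127 RPKM in GM and 107 to 120.0 RPKM in DM.

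**Figure D3:**
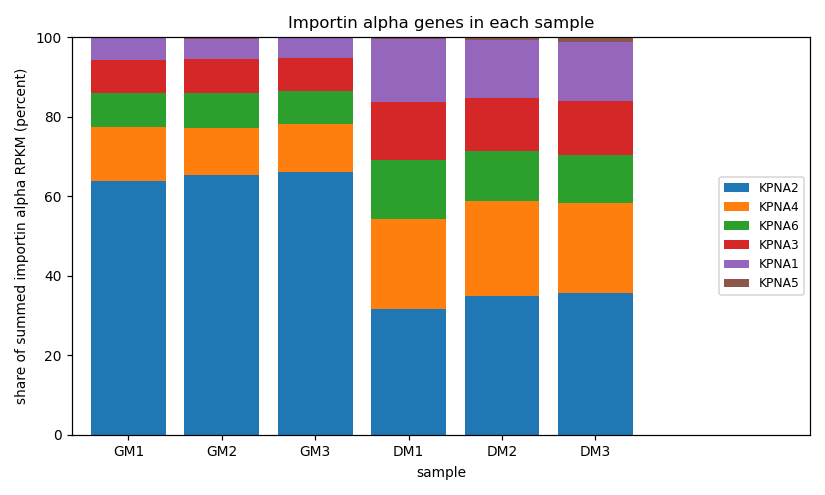
Each bar is 1 sample, and its colours give the share (percent, vertical) of each importin alpha gene in their summed RPKM. KPNA2 takes 63.9 to 66.2% in the GM samples and 31.7 to 35.5% in the DM samples, and the shares of KPNA1, KPNA3, KPNA4 and KPNA6 are all higher in DM.

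The 4 exportins did not move together. XPOT (exportin-t), which carries mature tRNA to the cytoplasm, lies at chromosome 5, 49550765 to 49587910, and had 288, 275 and 277 CPM in the GM samples and 409, 421 and 424 CPM in the DM samples. All 3 DM samples of XPOT lay above all 3 GM samples, and it rose by 0.58 (SE 0.056) on the log2 scale (edgeR adjusted p = 6.11e-06). XPOT remained the single higher gene of the 40 under each alternative of test, scaling and filter and without any one sample. CSE1L (CAS), the exportin that returns importin alpha to the cytoplasm, had 283, 269 and 282 CPM in the GM samples and 105, 127 and 116 CPM in the DM samples, a log2 fold change of -1.26 (SE 0.075, edgeR adjusted p = 1.72e-07). XPO5, the exportin of microRNA precursors, had 118, 113 and 107 CPM in the GM samples and 62.2, 59.4 and 61.6 CPM in the DM samples and fell by 0.88 (SE 0.064, edgeR adjusted p = 7e-07). XPO1 (CRM1), the general exportin for leucine-rich export signals, had 209.8, 182 and 200.5 CPM in the GM samples and 125, 151 and 127 CPM in the DM samples and fell by 0.56 (SE 0.086, edgeR adjusted p = 0.000212). Of the summed RPKM of these 4 genes, a comparison chosen after the values were seen and given with no test, XPOT took 39.2 ± 0.383% in GM and 65.3 ± 1.36% in DM, and CSE1L took 31.6 ± 0.519% and 14.7 ± 0.902%.

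Both subunits of the mRNA export receptor fell. NXT1, the small subunit, had 22.7, 24.3 and 21.2 CPM in the GM samples and 10.1, 9.97 and 12.6 CPM in the DM samples, a log2 fold change of -1.06 (SE 0.11, edgeR adjusted p = 1.21e-05), and was not called without DM2. NXF1 (TAP), the large subunit that binds the pore, had 49.9, 48.3 and 51.2 CPM in the GM samples and 27.9, 29.7 and 28.4 CPM in the DM samples and fell by 0.80 (SE 0.067, edgeR adjusted p = 2.25e-06). The groups did not overlap for either subunit, which was also so for 68.8% of all tested genes.

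Levels were compared between genes as RPKM, per length. In the GM samples KPNB1 was the most abundant of the 40 at 254 ± 7.85 RPKM, followed by KPNA2 at 224 ± 3.93, IPO5 at 157 ± 4.62, XPOT at 94.4 ± 2.32, IPO7 at 93.9 ± 3.48 and RANGAP1 at 87.0 ± 4.64. XPOT and IPO7 did not differ beyond their spread. In the DM samples XPOT came first at 141 ± 2.68 RPKM, followed by KPNB1 at 125 ± 2.90, IPO5 at 101 ± 1.43, KPNA2 at 57.8 ± 7.18 and IPO7 at 57.4 ± 4.98, the last 2 of which were within each other's spread. The 5 most abundant genes were the same carriers in both groups. This ranking takes the row named RAN, which may be a copy of the gene, at its 2.76 RPKM in GM and 1.19 RPKM in DM. Among the pore proteins of the 40 genes, the highest was NUP93 in GM, at 55.5 ± 1.99 RPKM, and TPR in DM, at 25.0 ± 0.454 RPKM. Within the 7 Y complex genes of the set, RPKM spanned 10.2 (NUP43) to 47.6 (NUP85) in GM and 5.99 (NUP43) to 24.0 (SEH1L) in DM. SEC13, a Y complex protein outside the set that also acts in the secretory pathway, was higher, at 129 ± 4.74 RPKM in GM and 85.3 ± 10.1 RPKM in DM.

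**Figure D4:**
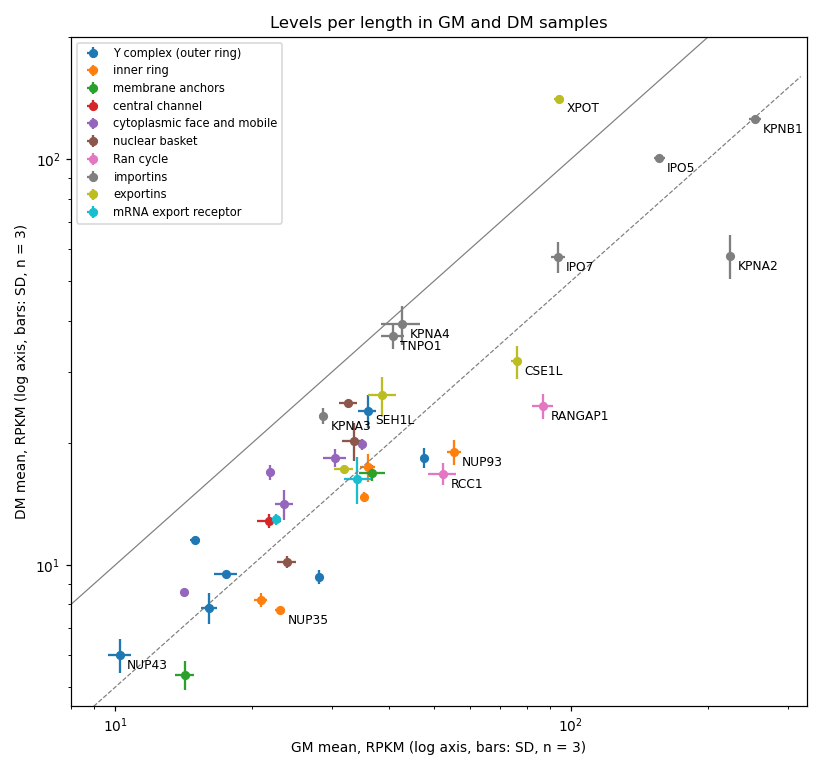
Mean RPKM in DM (vertical, log axis) against mean RPKM in GM (horizontal, log axis) for 38 of the 40 genes, with bars for the SD (n = 3), a solid line of equal level and a dashed line of a 2-fold lower level in DM. XPOT lies above the solid line at 94.4 in GM and 141 in DM, KPNA2 lies far below the dashed line, and NUP210 and RAN are below the range of the axes.

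DM1 had the lowest level of the 3 DM samples for 20 of the 40 genes, DM3 for 12 and DM2 for 8. DM2 had the highest level for 18 genes, among them KPNA2, CSE1L and XPO1. At the transcript level, the 40 genes had 43 mRNA transcripts, since CSE1L, IPO5 and NUP210 were each listed with a pair. Of the 43, 40 fell, 1 rose and 2 did not pass the test, against 32.3% lower and 32.3% higher among all tested mRNAs. The paired transcripts of CSE1L had log2 fold changes of -1.28 and -1.28, and those of IPO5 had -0.62 and -0.65, but reads shared between transcripts of a gene are not independent. The 40 rows lay on 21 chromosomes, at most 6 of them on one (chromosome 5), and XPOT, which rose, was on that chromosome with 5 genes that fell.

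A wider list of 72 other nuclear transport genes gave the background of the pathway. Of these, 57 were listed and 55 tested. Of the 55, 36 fell, 3 rose and 16 did not pass the test, with a median log2 fold change of -0.33, beside the 31.4% lower and 31.6% higher of all tested genes. Called were 8 of the 55, all lower, a share not far above the 10.3% called lower among all tested genes, of which 15.0% were called higher. Of 14 further pore or pore-linked genes 9 fell, 0 rose and 1 was called. That was GLE1, which activates the helicase that strips mRNA at the cytoplasmic face, with 53.5, 55.8 and 58.2 CPM in the GM samples and 25.3, 25.7 and 27.9 CPM in the DM samples, a log2 fold change of -1.08 (SE 0.073). AHCTF1 (ELYS) and SEC13, which belong to the Y complex but not to the set of 40, fell and were not called, at -0.50 (SE 0.061) and -0.60 (SE 0.085).

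Among 14 tested genes of TREX, the complex that loads export factors on mRNA, and related mRNA export, 11 fell and 4 were called. Of all tested genes, 31.4% were lower and 10.3% were called lower. The helicase DDX39A went from 203, 213 and 199 to 52.8, 54.7 and 60.8 CPM, a log2 fold change of -1.87 (SE 0.071), the largest fall of the wider list (edgeR adjusted p = 1.05e-08). Its paralog DDX39B went from 296, 284 and 293 to 144, 139 and 139 CPM, a log2 fold change of -1.05 (SE 0.056). THOC3, a subunit of the THO core, went from 27.7, 27.4 and 28.7 to 9.27, 8.91 and 11.3 CPM, a log2 fold change of -1.51 (SE 0.10). ALYREF, the adaptor that hands mRNA to NXF1, went from 147, 166 and 152 to 61.2, 58.1 and 63.4 CPM, a log2 fold change of -1.35 (SE 0.070). In each of these 4 genes, described because they were called, the DM samples lay below the GM samples. The groups lay apart for 68.8% of all tested genes.

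The remaining 3 called genes were a Ran-related factor, an importin and an exportin. RCC2, a mitotic relative of RCC1, went from 181, 205 and 187 to 65.3, 65.3 and 70.9 CPM, a log2 fold change of -1.50 (SE 0.070). IPO4, which imports histones and other cargo, went from 188, 191 and 189 to 84.3, 77.1 and 86.0 CPM, a log2 fold change of -1.20 (SE 0.063). XPO6, the exportin of actin, went from 476, 434 and 454 to 169.7, 148 and 183 CPM, a log2 fold change of -1.45 (SE 0.082). Each of these 3 DM sets lay below its GM set, while the groups lay apart for 68.8% of all tested genes. These genes, too, were described because they were called.

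The 3 genes of the wider list that rose changed little. KPNA1 (importin alpha 5) had 52.1, 46.5 and 47.1 CPM in the GM samples and 66.4, 71.2 and 65.9 CPM in the DM samples, a log2 fold change of 0.48 (SE 0.072, edgeR adjusted p = 0.000159), and its groups did not overlap. LENG8, a relative of the TREX-2 scaffold MCM3AP, had 113, 109.8 and 109 CPM in the GM samples and 127, 121 and 139 CPM in the DM samples, a log2 fold change of 0.23 (SE 0.067, edgeR adjusted p = 0.0125). IPO13 had 89.3, 80.1 and 84.5 CPM in the GM samples and 98.8, 90.5 and 97.5 CPM in the DM samples, a log2 fold change of 0.18 (SE 0.067, edgeR adjusted p = 0.0413). LENG8 did not pass without GM3 (edgeR adjusted p = 0.0552), and IPO13 did not pass without GM2, GM3 or DM1 (edgeR adjusted p = 0.147, 0.111 and 0.105). With library size alone as the scaling, KPNA1 was the 1 gene of the wider list still higher.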

How the data were processed

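Raw read counts per gene and per mRNA transcript were deposited by the authors for 6 samples (3 GM, 3 DM), without normalization. Per the study's methods, reads from polyadenylated RNA libraries were aligned with HISAT2 to a buffalo genome, whereas the submitters' processing notes name Bowtie 0.12.2 and mouse builds, and the tables list cattle Ensembl identifiers. The build of the deposited coordinates is not given in the sources used here. RPKM values deposited by the authors are counts scaled to gene length (a column of lengths in bases) and to the summed gene counts, and they were used only for a filter. RPKM values in the text were recomputed from the counts with TMM-scaled libraries. All sample columns were mapped. The ncRNA table and the authors' lists of differential features, which hold fold changes, p-values and q-values, were not used.

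Counts were fitted with the quasi-likelihood functions of edgeR 4.0.16 under R 4.3.3, with TMM scaling and group as the only term. Features with fewer than 10 counts summed over the samples were left out, and p-values had Benjamini-Hochberg adjustment over all tested features. The study's methods name DESeq2, which served as an alternative (1.42.0), together with library size alone, DESeq2 size factors, other filters, a replicate block, a test against a fold change of 2 and each sample left out in turn. Standard errors were taken from the F statistic. The pipeline was tested on simulated data. Tables were summarised with Python 3.11.15, pandas 2.3.3 and scipy 1.17.1.

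The genes, their role groups and the marker and pathway lists were chosen with earlier results of these data known. Values per sample were given for the 3 genes of largest change in each role group, every called gene and every higher gene, and of the wider list for the called genes and the 3 largest changes in each direction among those that passed the test. KPNA3, KPNA4, TNPO1, XPO1, NUP210L, AHCTF1, SEC13, NUP58, NUTF2, RANGRF, KPNA6 and the exportin shares were described beyond this rule. No sequence is printed, since no sequence file of these genes was used here.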

Additional observations from a re-analysis of the deposited data

How the results depend on the processing

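The counts of lower (37), called (19 lower, 0 higher) and higher (1) nuclear pore and transport genes kept their size within 1.5 times under DESeq2 and the other scalings and filters, and 517 of 519 values of these genes kept their direction and their side of an adjusted p of 0.05. The exceptions at that threshold were both TNPO1, which passed with library size alone (-0.25, edgeR adjusted p = 0.0159) and without DM2. GM and DM samples share replicate numbers. The deviations of same-numbered samples had correlations of -0.0105, -0.0467 and -0.00813, so no effect shared by them was seen. These values cannot tell whether same-numbered samples came from the same culture or animal. A replicate block left 37 lower, the same 19 calls, a median of -0.88 and 3 higher genes of the wider list, and changed no call. A test against a fold change of 2 called 13 of the 19, without AAAS, KPNB1, NUP107, NUP188, NXT1 and RAN. Under the RPKM filter 15 were called and NUP210 was not tested. Of the 19, 12 were called under every setting. The median was -0.98 with library size alone, where that of all genes was -0.07, and -0.82 under the RPKM filter. With library size alone 1 gene of the wider list was higher in place of 3. The KPNA2 share fell by 28.0 percentage points when set against KPNA3 and KPNA4 alone. With each sample left out in turn, lower genes numbered 37 to 38, calls 17 to 19, higher genes 1 to 1 and genes called higher 0 to 0, while the median ranged from -0.91 to -0.84 and the KPNA2 difference from -31.9 to -29.9 percentage points. The wider list then had 33 to 36 lower and 1 to 4 higher genes (1 without GM3), and the transcripts 40 to 41 lower and 1 to 1 higher. The single genes of the wider list checked in this way were those whose fold changes are given above. Of their 234 values, 226 kept direction and side of the adjusted p, 7 no longer passed (IPO13 and LENG8), and 1 turned. The latter was NUP210L, which ranged from -0.22 to 0.034 with each sample left out in turn (0.034 without DM3) and did not pass the test in the comparison of all samples. Among the other genes of the wider list, TNPO2, IPO8 and POLDIP3 fell but did not pass in every fit with a sample left out. Their largest edgeR adjusted p was 0.101, 0.0949 and 0.117. For NUP210 and RAN, low counts limit the precision.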
